A study of Homo sapiens with 4 samples.

Results

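The genes described here are 9 interferon-stimulated genes, IFIT1, IFIT2, IFIT3, IFIT5, IFI6, IFI27, IFI35, IFI44 and IFI44L, chosen by gene symbol from the 27629 gene identifiers listed in at least 1 of the 4 deposited tables. All 9 were listed in every table. They were put together with their high values after hnRNPK knockdown already known, so their values in that library are given as a description and carry no test.

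RNA-seq was performed in 4 libraries of UM-UC-3, a cell line established from a human bladder cancer, with 1 library per condition, so no value has a replicate check. Cells received 75 nM siRNA (a short double-stranded RNA that directs the cutting of a matching transcript) for 48 h. The libraries were control siRNA (a duplex matching no annotated transcript), si-hnRNPK (a duplex pair against HNRNPK, an RNA- and DNA-binding protein), si-PTBP1 (a pair against PTBP1, a splicing regulator) and one that carries the label si-lncRNA-LBCS (a pair against a long noncoding RNA), called here the LBCS-labelled library after the check of its target given next. The study was about hnRNPK in bladder cancer, and the question addressed by each comparison is which transcripts differ after the knockdown. Levels are in CPM, the reads of a gene scaled to the size of its library, and a change is the difference between 2 libraries in log2(CPM + 1), taken over genes that reach 1 CPM in either of them. A change of at least 1 in size, or 2-fold on that scale, is called past the 2-fold line. Intervals are 95% exact (Clopper-Pearson) counting intervals, which leave out all variation between cultures.

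HNRNPK was at 783.1 CPM in control and 187.8 CPM in si-hnRNPK, which is 24.0% of control, and stayed at 103.1% in the LBCS-labelled library and 83.8% in si-PTBP1. PTBP1 was at 32.0% of control in si-PTBP1. The gene matched by both LBCS duplexes had 110 reads in control and 103 in the LBCS-labelled library, a ratio of 0.818 (0.619 to 1.08), so its knockdown was not detectable at this depth. Reads summed over the listed genes came to 54301152 to 70232674 per library. Of 5 epithelial markers, KRT7, KRT8 and KRT18 were at 1 CPM or more in every library, KRT19 was at 0.0712 to 0.232 CPM and EPCAM had 1 read in si-PTBP1 and no value elsewhere. None of the 4 urothelial markers with values reached 1 CPM. The 4 mesenchymal markers, led by VIM, summed to 1666 to 2572 CPM, beside 148.6 to 213.5 for the epithelial ones. In a bulk library, fewer cells with a transcript and less transcript per cell cannot be told apart.

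Interferons are secreted when a cell senses foreign or displaced nucleic acid. They bind receptors that act through JAK kinases on a complex of transcription factors that includes STAT2 and IRF9, and this complex binds a short element in the promoters of interferon-stimulated genes. IFIT proteins are built from tetratricopeptide repeats. IFIT1 binds RNA whose cap lacks the methylation of host mRNA and blocks its translation, IFIT2 and IFIT3 form complexes with it, and IFIT5 binds RNA ending in a triphosphate. IFI6 and IFI27 are small hydrophobic membrane proteins of a shared family, IFI35 is a leucine zipper protein that binds NMI, and IFI44 and IFI44L are paralogues.

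In GENCODE 29 on GRCh38, which was matched by identifier and is not the hg19 build named in the submitters' notes, the IFIT genes lie in 1 cluster on the plus strand of chromosome 10. IFIT2 spans chr10:89283694-89309276, IFIT3 chr10:89327894-89340971, IFIT1 chr10:89392546-89406486 and IFIT5 chr10:89414586-89421001. IFI44L at chr1:78619922-78646145 is next to IFI44 at chr1:78649796-78664078, both on the plus strand. IFI6 lies apart at chr1:27666061-27672218 on the minus strand, IFI27 at chr14:94104836-94116698 and IFI35 at chr17:43006725-43014456, both on the plus strand. All 9 are protein-coding.

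The promoters are shown because the transcription factor complex named above binds there. The motif itself was not used to choose the genes. However, they were chosen as interferon-stimulated genes, the class in whose promoters this complex binds. A high share of matches is therefore close to built in by the choice and is given as a description. RefSeq windows on GRCh38.p14, from 250 bases before to 50 bases after an annotated start, were available here for 8 of the 9 genes, the exception being IFIT2. Each was searched on both strands for GAAANNGAAA (read as TTTCNNTTTC on the other strand), the core of the interferon-stimulated response element, with overlapping matches counted. Written 5′ to 3′ on the strand of the gene, with matches in capitals, the windows of the genes with the largest changes at a pseudocount of 1 (IFIT1 and IFI6), the cluster members IFIT3 and IFIT5, and the gene without a match (IFI35) are as follows.
IFIT1, chr10:89392373-89392672, plus strand: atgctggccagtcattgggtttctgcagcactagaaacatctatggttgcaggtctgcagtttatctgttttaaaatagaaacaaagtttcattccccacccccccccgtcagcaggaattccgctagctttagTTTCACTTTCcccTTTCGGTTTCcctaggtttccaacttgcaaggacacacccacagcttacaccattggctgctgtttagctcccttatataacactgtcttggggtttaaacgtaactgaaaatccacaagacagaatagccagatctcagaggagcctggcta
IFI6, chr1:27672143-27672442, minus strand: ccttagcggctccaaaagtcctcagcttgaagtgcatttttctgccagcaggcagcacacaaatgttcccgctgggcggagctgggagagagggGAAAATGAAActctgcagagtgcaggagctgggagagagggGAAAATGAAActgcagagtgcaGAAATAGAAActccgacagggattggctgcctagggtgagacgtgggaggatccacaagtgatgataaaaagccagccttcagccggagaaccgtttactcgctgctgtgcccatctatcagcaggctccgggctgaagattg
IFIT3, first of its starts, chr10:89327747-89328046, plus strand: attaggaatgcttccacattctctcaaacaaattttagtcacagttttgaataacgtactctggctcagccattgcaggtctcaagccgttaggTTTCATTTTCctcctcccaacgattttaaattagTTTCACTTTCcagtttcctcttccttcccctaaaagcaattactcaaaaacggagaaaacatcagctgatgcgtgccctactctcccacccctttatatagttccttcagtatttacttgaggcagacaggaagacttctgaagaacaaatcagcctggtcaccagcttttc
IFIT5, chr10:89414318-89414617, plus strand: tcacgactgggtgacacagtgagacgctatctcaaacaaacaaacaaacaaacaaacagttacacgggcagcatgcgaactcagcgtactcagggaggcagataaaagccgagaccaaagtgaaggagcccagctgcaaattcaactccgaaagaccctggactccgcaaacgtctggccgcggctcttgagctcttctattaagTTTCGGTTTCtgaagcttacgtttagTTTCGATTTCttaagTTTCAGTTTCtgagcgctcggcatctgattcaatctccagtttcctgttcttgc
IFI35, chr17:43006534-43006833, plus strand: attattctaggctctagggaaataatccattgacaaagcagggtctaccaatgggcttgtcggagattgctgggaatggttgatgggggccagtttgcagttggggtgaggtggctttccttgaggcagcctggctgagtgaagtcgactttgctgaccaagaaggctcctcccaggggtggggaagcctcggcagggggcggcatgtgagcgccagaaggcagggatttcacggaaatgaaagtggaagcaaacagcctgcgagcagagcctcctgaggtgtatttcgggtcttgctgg

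In IFIT1 the matches began 116 and 103 bases before the start and were separated by the letters ccc. IFIT5 held 3 matches, beginning 45, 19 and 4 bases before the RefSeq start, so the last ran across that start. The GENCODE start of IFIT5 given above, chr10:89414586, lies further downstream, and by it all 3 matches lie before the start. Distances here are from the RefSeq start of each window, which can differ from the GENCODE start. IFI6 held 3 on its own strand, and those at 156 and 115 bases before the start lay in a repeated stretch. For IFI44L, IFI44 and IFI27 only the 30 bases around the first match are shown, which for IFI27 end inside a second match on the other strand.
IFI44L, in window chr1:78620198-78620497: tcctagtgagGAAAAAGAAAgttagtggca
IFI44, in window chr1:78649581-78649880: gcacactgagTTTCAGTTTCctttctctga
IFI27, in window chr14:94110486-94110785: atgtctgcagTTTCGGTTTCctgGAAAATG

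The motif was present in 7 of the 8 genes with a window (87.5%), and 6 of the 8 held at least 2 matches. Of all 27305 genes with windows of this length, counted the same way, 4.38% held a match and 0.311% at least 2, and of the 35116 single windows 3.57% held a match. IFI35 had no match to these letters in its window. A match is a description of the sequence, and binding was not measured here.

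**Figure D1:**
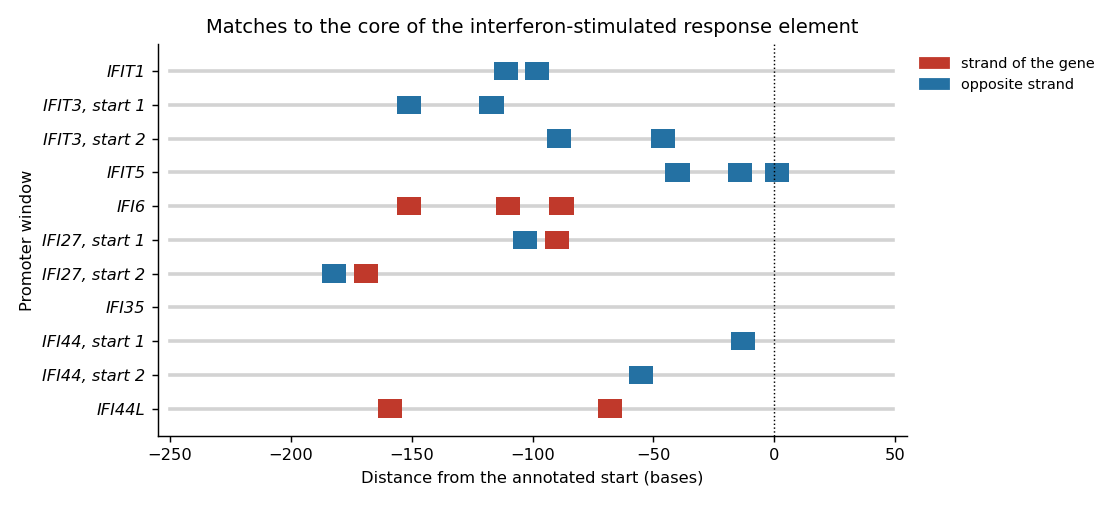
Matches to the motif in the promoter windows of 8 of the genes, with the distance from the annotated start in bases on the horizontal axis and 1 grey line per window. Each block is a 10-base match, coloured by strand; 10 of the 11 windows hold at least 1, and the IFI35 window holds none.

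In control cells 7 of the 9 genes were expressed and IFI27 and IFI44L were close to absent, with 11 reads each. Between genes, levels are compared per kilobase of the longest annotated transcript, as RPKM (CPM divided by length in kilobases). On this scale the order in control was IFI44 (20.3 RPKM), IFI6 (13.4), IFI35 (10.6), IFIT3 (9.36), IFIT5 (8.19), IFIT2 (6.48) and IFIT1 (4.25), and these neighbours had counting intervals that did not overlap. IFI27 (0.0735 RPKM) and IFI44L (0.0305 RPKM) followed and could not be ordered, since their intervals overlapped. The order rests on the transcript length used, and a shorter main transcript would raise a gene's level.

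After hnRNPK knockdown the order was different. IFI6 led at 316.9 RPKM, followed by IFI44 at 142.2 and IFIT1 at 101.1, which had been last of the 7 expressed genes in control. IFIT3 stood at 63.2 RPKM, and IFI35 (49.7) and IFIT2 (48.0) could not be separated. IFIT5 at 30.1, IFI27 at 3.67 and IFI44L at 1.85 RPKM were lowest.

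**Figure D2:**
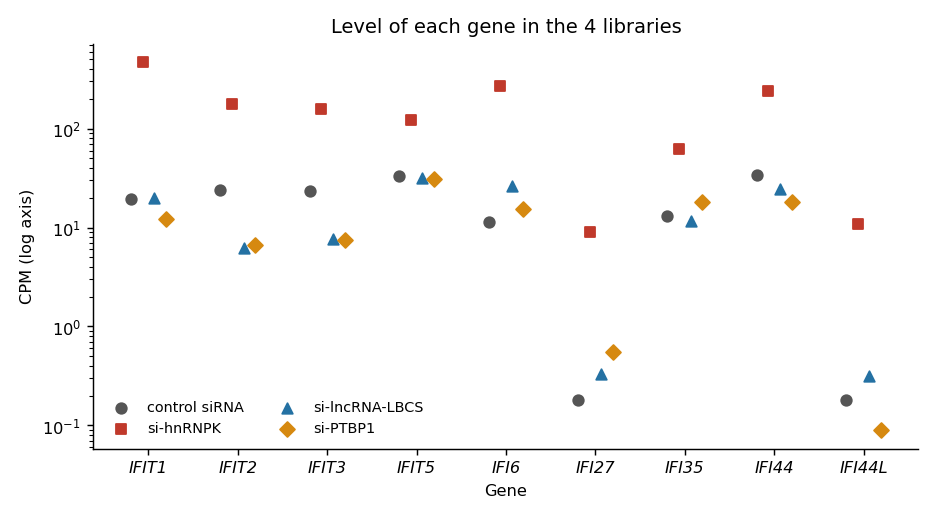
Level of each gene in CPM on a log axis in the 4 libraries, 1 point per library and no error bar, since there is 1 library per condition. The si-hnRNPK point is the highest for each of the 9 genes. For IFIT2, IFIT3, IFI44 and, by little, IFIT5 the control point lies above those of both other knockdowns.

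IFIT1, which binds foreign RNA, was at 19.6 CPM in control, 466.3 in si-hnRNPK, 19.7 in the LBCS-labelled library and 12.1 in si-PTBP1. It was 23.8-fold higher in si-hnRNPK than in control (22.5 to 25.3), a change of 4.50, which ranked first of the 13672 genes compared at this pseudocount. With a pseudocount of 0.1, IFI44L (5.30) and IFI27 (5.02) were above IFIT1 (4.57). In the LBCS-labelled library it differed from control by 0.01, within counting error.

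IFIT2, a partner of IFIT1, was at 24.0 CPM in control, 177.9 in si-hnRNPK, 6.15 in the LBCS-labelled library and 6.71 in si-PTBP1. IFIT3, which also joins IFIT1, was at 23.4, 157.8, 7.65 and 7.42 CPM in the same order. Both were thus high in si-hnRNPK and low in both of the other knockdowns, with changes in si-hnRNPK of 2.84 for IFIT2 and 2.70 for IFIT3. Reads of IFIT3 per read of IFIT2 were 0.974 (0.905 to 1.05) in control and 0.887 (0.862 to 0.914) in si-hnRNPK. This ratio was 1.24 (1.09 to 1.41) in the LBCS-labelled library, with an interval above both of these. In si-PTBP1 it was 1.11 (0.960 to 1.28).

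IFIT5 was the member with the smallest change. It was at 32.9 CPM in control, 120.7 in si-hnRNPK, 31.7 in the LBCS-labelled library and 31.2 in si-PTBP1. The change in si-hnRNPK was 1.85 (3.67-fold, 3.49 to 3.86), which ranked 85 of 13672. IFIT5 is the next gene after IFIT1, and the number of IFIT5 reads per IFIT1 read was 1.68 in control and 0.259 in si-hnRNPK.

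IFI6, a membrane protein with antiviral activity, was at 11.2 CPM in control, 266.5 in si-hnRNPK, 26.5 in the LBCS-labelled library and 15.4 in si-PTBP1. The change in si-hnRNPK was 4.45, ranking just below IFIT1 at a pseudocount of 1. IFI6 was the only 1 of the 9 genes past the 2-fold line upward in the LBCS-labelled library. A transcript antisense to IFI6 that shares no exon bases with it, ENSG00000225886, had 6 reads in control, 170 in si-hnRNPK, 9 in the LBCS-labelled library and 8 in si-PTBP1. Whether counting used strand is not given in the sources used here, so reads of the pair may be mixed.

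IFI27, the relative of IFI6, was at 0.179 CPM in control (11 reads), 8.95 in si-hnRNPK (486), 0.327 in the LBCS-labelled library (23) and 0.553 in si-PTBP1 (31). The ratio of si-hnRNPK to control was 49.9 (27.7 to 100.7). On the log2(CPM + 1) scale, which understates changes of low genes, this was 3.08.

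IFI44L was at 0.179 CPM in control (11 reads), 10.9 in si-hnRNPK (591), 0.313 in the LBCS-labelled library (22) and 0.0892 in si-PTBP1 (5). Its ratio to control in si-hnRNPK, 60.7 (33.7 to 122.3), was the highest of the 9 genes, although its interval overlapped that of IFI27. IFI44, its neighbour and paralogue, was at 34.2, 239.8, 24.8 and 18.1 CPM in the same order, a change of 2.77 in si-hnRNPK. Reads of IFI44L per read of IFI44 were 0.00523 (0.00261 to 0.00938) in control and 0.0454 (0.0417 to 0.0493) in si-hnRNPK.

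IFI35 was at 13.2 CPM in control, 61.7 in si-hnRNPK, 11.7 in the LBCS-labelled library and 18.0 in si-PTBP1. The change in si-hnRNPK was 2.15 (4.68-fold, 4.34 to 5.06), second smallest of the 9.

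Against control, then, all 9 genes were past the 2-fold line upward in si-hnRNPK, beside 3.55% of the 13672 genes compared, and since this contrast was known when the genes were put together nothing is read from the count. IFI27 and IFI44L passed the 1 CPM filter only through their si-hnRNPK level. The median change of the 9 was 2.84 and that of all genes compared was -0.11, and scaling the libraries by the median of gene ratios moved the median to 2.95.

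**Figure D3:**
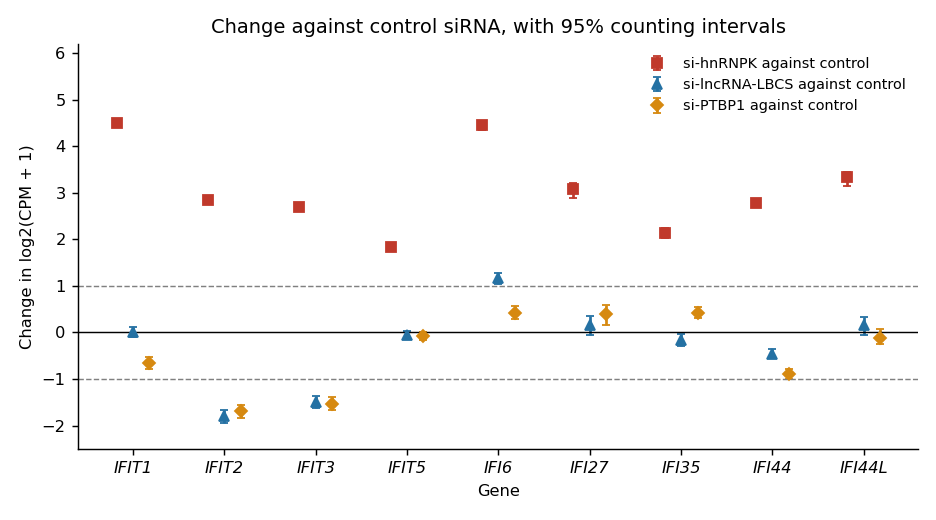
Change in log2(CPM + 1) against control siRNA for each gene in the 3 knockdown libraries, with bars for the 95% counting interval and dashed lines at the 2-fold line. All si-hnRNPK points lie above 1, IFIT2 and IFIT3 lie below -1 in both other knockdowns, and IFI6 lies above 1 in the LBCS-labelled library; IFI27 and IFI44L did not pass the 1 CPM filter in these other comparisons.

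The other knockdowns were then compared with control. Both use the same control library, so any departure of that library enters both. In the LBCS-labelled library, 7 of the 9 genes passed the filter. Of these, 1 was past the 2-fold line upward, beside 0.378% of all genes compared, and 2 downward, beside 1.01%. IFIT2 was at 25.6% of control, a change of -1.81 (-1.94 to -1.67), which ranked 13479 from the top of 13492. IFIT3 changed by -1.49 (-1.63 to -1.36), and IFI6 by 1.17 (1.05 to 1.29), ranking 19. IFI44 at -0.45, IFI35 at -0.16 and IFIT5 at -0.05 stayed within the line. The median of the 7 was -0.16, beside -0.01 for all genes compared, and over all 9 without the filter it was -0.05.

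In si-PTBP1 the same 7 genes passed the filter, and none was past the line upward, beside 2.92% of all genes, while 2 were past it downward, beside 0.613%. IFIT2 was at 27.9% of control, a change of -1.70 (-1.85 to -1.55), and IFIT3 changed by -1.53 (-1.68 to -1.39). IFI44 at -0.89 (-0.99 to -0.78) and IFIT1 at -0.65 were lower than control by less than 2-fold. IFI6 at 0.42 and IFI35 at 0.43 were higher, and IFIT5 at -0.07 was within counting error. Of the genes left out by the filter, IFI27 had 31 reads beside 11 in control, a CPM ratio of 3.08 (1.51 to 6.80). IFI44L had 5 beside 11, a ratio of 0.498 (0.136 to 1.55). The median of the 7 was -0.65, beside 0.12 for all genes compared, and over all 9 without the filter it was -0.11.

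Set against each of the other knockdowns rather than control, si-hnRNPK again held the higher level of every gene. Against the LBCS-labelled library all 9 were past the 2-fold line upward, beside 3.1% of all genes compared, with changes from 1.90 for IFIT5 to 4.64 for IFIT2, the latter ranking first. Against si-PTBP1 all 9 were again past it, beside 2.37%, with changes from 1.72 for IFI35 to 5.15 for IFIT1, which ranked first. In both comparisons IFI27 and IFI44L passed the 1 CPM filter only through their si-hnRNPK level, and nothing is read from the counts. These comparisons share the si-hnRNPK library with that against control and are not independent of it.

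The knockdowns also differed in how the reads of the 9 genes were divided. Their summed level was 158.8 CPM in control, 1511 in si-hnRNPK, 128.8 in the LBCS-labelled library and 109.7 in si-PTBP1. IFIT1 held 12.3% of these reads in control and 30.9% in si-hnRNPK, and IFI6 held 7.08% and 17.6%. IFIT5 went the other way, from 20.7% to 7.99%. Reads of IFIT2 per IFIT1 read were 1.23 (1.13 to 1.32) in control, 0.381 (0.373 to 0.391) in si-hnRNPK, 0.311 (0.279 to 0.347) in the LBCS-labelled library and 0.552 (0.486 to 0.627) in si-PTBP1. This ratio was below control in each knockdown, in si-hnRNPK with both genes higher and in the LBCS-labelled library with IFIT2 lower and IFIT1 at the control level.

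**Figure D4:**
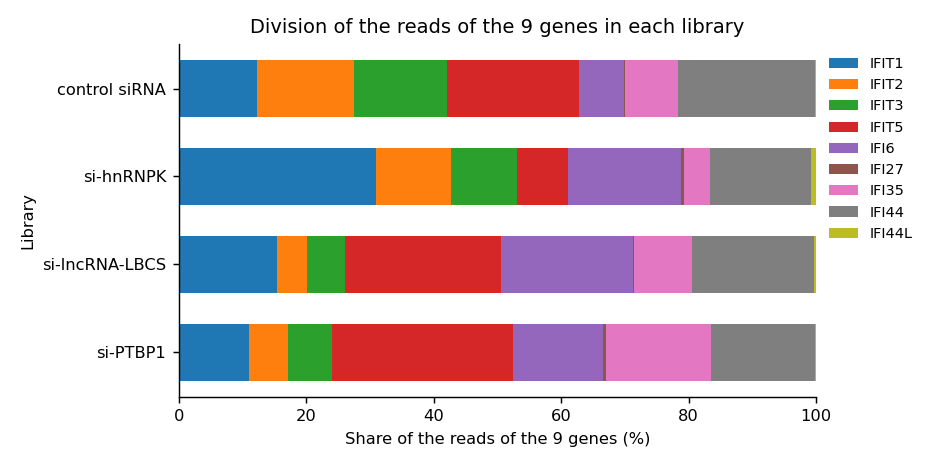
Share of the summed reads of the 9 genes taken by each gene, in percent, with 1 bar per library. IFIT1 and IFI6 take a larger share in si-hnRNPK than in control, and IFIT5 takes 20.7% in control and 7.99% in si-hnRNPK.

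Genes beside the clusters were compared in the same way. Within the IFIT cluster IFIT1B, the paralogue between IFIT3 and IFIT1, had 2 reads in control and 5 in si-hnRNPK and was not detectably different. On the IFIT2 side, LIPA, the lysosomal acid lipase, changed by 0.97 (0.91 to 1.03) and FAS, a death receptor, by 0.76. Exons of LIPA on the opposite strand overlap those of IFIT2, so reads of the pair may be mixed too, which was not tested. On the IFIT5 side, PANK1 (-0.74) and KIF20B (-1.31), a mitotic kinesin, were lower and SLC16A12 had 1 and 4 reads. Around the IFI44L-IFI44 pair, DNAJB4, a heat shock cochaperone, changed by 0.94, ADGRL2 by 0.31 and TTLL7 by -0.73, and GIPC2 (15 reads in control and 46 in si-hnRNPK) and PTGFR (11 and 25) did not reach 1 CPM. The starts of DNAJB4, ADGRL2 and TTLL7 lay at -641, 2686 and 5245 kb from that of IFI44L. They are thus among the nearest in gene order but not close by. CH25H and ADGRL4 had no value. With CPM as deposited none of the neighbours was past the 2-fold line upward, but with libraries scaled by the median of gene ratios LIPA (1.08) and DNAJB4 (1.05) were just past it.

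**Figure D5:**
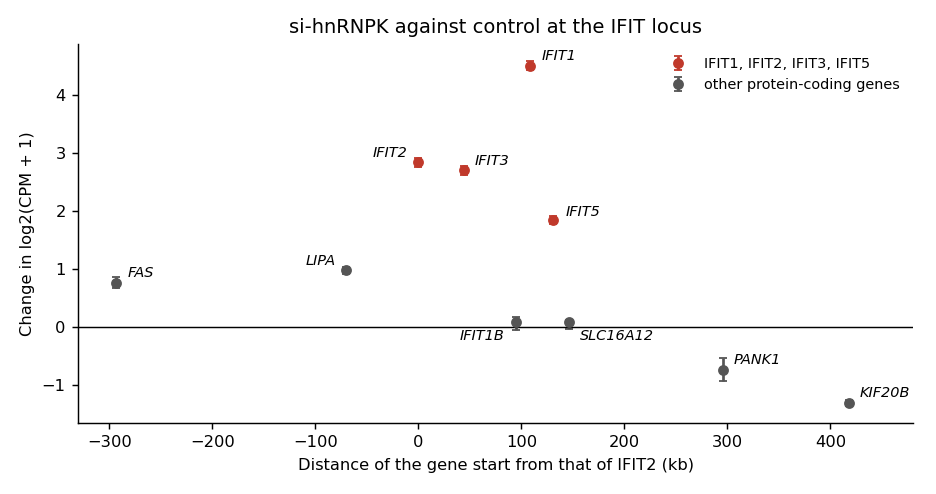
Change in log2(CPM + 1) of si-hnRNPK against control for genes at the IFIT cluster, by distance of the gene start from that of IFIT2 in kb, with 95% counting intervals. The 4 IFIT genes lie between 1.85 and 4.50, and the neighbours with a value lie between -1.31 and 0.97.

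The rest of the interferon pathway was taken from 7 gene lists, of which 74 of 83 genes were listed and 65 passed the filter in si-hnRNPK against control. Of these 65, 37 were past the 2-fold line upward, beside 3.55% of all genes compared, and their median change was 1.29. Downward there was 1, beside 537 of the 13672 genes compared. However, 12 of the 65 were below 1 CPM in control and passed the filter only through their si-hnRNPK level, and 10 of these were among the 37. When those 12 were left out, 27 of 53 were past the line upward, with a median of 1.10. The lists were drawn up with earlier results of these data known.

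Among the ligands none reached 1 CPM. IFNB1, the interferon made by most cell types, had 1 read in control, 29 in si-hnRNPK (0.534 CPM) and 1 in si-PTBP1. IFNE, the ligand with the most reads, had 13 in control, 31 in si-hnRNPK, 22 in the LBCS-labelled library and 45 in si-PTBP1, and IFNK had 12, 6, 9 and 10. These 3 were named after their values were seen. Of the receptors and their kinases, 0 of 8 were past the line in either direction, with JAK1 at 0.56, IFNAR2 at 0.33 and IFNGR2 at 0.32 highest and IL10RB at -0.37 lowest. The shares of all genes compared were 3.55% upward and 537 of 13672 downward, so nothing is read from 0 of 8.

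Of the STAT and IRF factors, 6 of 9 were past the line upward and none downward. The share of all genes compared, 3.55% upward, stands beside this count and the si-hnRNPK list counts that follow. IRF7, the factor that amplifies interferon transcription, was at 5.30 CPM in control and 82.1 in si-hnRNPK, a change of 3.72. STAT2 changed by 1.84, and IRF5 was lowest at -0.58. Of the nucleic acid sensors and adaptors, 4 of 9 were past the line upward, 1 of them (TLR3) having passed the filter only through si-hnRNPK. The highest were the RNA sensors RIGI (3.32), IFIH1 (2.90) and TLR3 (2.01), while TMEM173, the adaptor of DNA sensing also called STING, was lowest at -0.30. These counts are of single libraries.

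Of the 5 feedback regulators only USP18, which removes ISG15 from proteins and blocks the receptor, was past the line (2.69), and TRIM25 was at 0.51, SOCS1 at 0.26 and PIAS1 at -0.78. Of the 30 other induced effectors 25 were past it, with CMPK2, a nucleotide kinase, at 4.17, OAS1, which makes the activator of RNase L, at 4.11, and ISG15, a ubiquitin-like modifier, at 4.07. CMPK2 was 1 of 10 effectors that passed the filter only through si-hnRNPK, and without these 10 the count was 16 of 20. IFITM2 was lowest at 0.37. Of the other genes with IFI or IFIT names, IFIH1 and the DNA sensor IFI16 (1.60) were past the line upward, IFI30, a lysosomal thiol reductase, was at 0.68, and IFI27L1, which lies near IFI27, was past it downward at -1.07.

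In the other knockdowns 53 genes of these lists passed the filter. Against control, 0 were past the line upward in the LBCS-labelled library, beside 0.378% of all genes compared, and 2 downward, beside 1.01%. Their median was -0.12. In si-PTBP1, 2 were past it upward, beside 2.92%, and 1 downward, beside 0.613%, with a median of 0.06. Nothing is read from counts this small.

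The genes whose changes in the 3 knockdowns were nearest to the median profile of the 9 genes, taken without the filter, included TRANK1, IFIH1, BATF2 and HELZ2, of 9444 named genes that reached 10 CPM in any library. Their Euclidean distances over the 3 changes were 0.511, 0.562, 0.571 and 0.589. IFIH1, the RNA sensor also called MDA5, was at 4.35 CPM in control, 38.9 in si-hnRNPK, 3.43 in the LBCS-labelled library and 2.46 in si-PTBP1. These genes were picked for likeness to a profile that is high in si-hnRNPK, so nothing is read from that likeness.

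Among genes outside the 9 with a promoter window, the motif was held by 14.6% of the 322 that were past the 2-fold line upward in si-hnRNPK, 3.17% of the 379 that were past it downward and 3.55% of the 9398 between. These groups come from the same contrast of si-hnRNPK with control, and the difference between them was not tested.

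Values that could bear on the levels are given beside them. The paired 19 bases of both si-hnRNPK duplexes, shown here because they set this library apart, are written in capitals with the overhang in lower case.
si-hnRNPK duplex 1: GGGUUGUAGAGUGCAUAAAtt
si-hnRNPK duplex 2: GCCUCCAUCUAGAAGAGAUtt
Neither had a full match in a transcript of the 9 genes. Summed leukocyte markers were at 1.97 CPM in control, 4.01 in si-hnRNPK, 1.12 in the LBCS-labelled library and 2.37 in si-PTBP1. Of the 9 markers 4 or 5 had values, mostly from ITGAM (0.978 CPM in control and 2.78 in si-hnRNPK) and NCAM1, while CD14 had 1 to 4 reads and PTPRC, CD3E and LYZ had no value in the tables used here. The part of these markers in the levels of the 9 genes was not tested.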

How the data were processed

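UM-UC-3 cells were transfected with 75 nM siRNA for 48 h, and poly(A) selection or strand use in the RNA-seq libraries is not given in the sources used here. The authors sequenced 100-base paired ends and deposited 1 table of CPM per library, and per the labels the genome build was hg19. The deposited CPM values were divided by the value of 1 read, which gave whole reads for 100% of values within 0.001 read, with a small placeholder for genes without reads. Summed over the listed genes, these reads came to 61371954 in control, 54301152 in si-hnRNPK, 70232674 in the LBCS-labelled library and 56064691 in si-PTBP1. Reads were used for ratios, RPKM and intervals, which cover counting error only.

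With 1 library per condition no test between conditions was possible and no p-value is given. Changes used a pseudocount of 1 and a filter of 1 CPM. Symbols were matched for 25647 of 27629 identifiers. The 9 genes, the pathway lists and the marker lists were chosen with earlier results of these data known. Named genes were all 9, the 3 highest and the lowest of each list, the 5 nearest profiles, the 3 protein-coding neighbours on each side of the IFIT and IFI44L-IFI44 loci and the targeted genes, and some of these are not reported here. Positions and transcript lengths came from GENCODE 29 and promoters from RefSeq. Alternatives were other pseudocounts, filters, scaling, thresholds and references. Python 3.11.15, pandas 2.3.3 and scipy 1.17.1 were used, and the scripts were tested on simulated data.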

Additional observations from a re-analysis of the deposited data

How the results depend on the processing

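Of 82 changes and medians recomputed under another setting, 74 had the same sign and the same side of the 2-fold line as before, and of 44 counts of genes, 42 were within 1.5 times the count reported. The others all came from replacing control as the reference by the geometric mean of the other 3 libraries, or of the other knockdowns alone, which by construction contain the high si-hnRNPK values. Under these 2 references, none (0 and 0) of the 9 genes was past the line upward in the LBCS-labelled library, the median change was -1.02 and -1.45 there and -1.45 and -2.05 in si-PTBP1, and IFI6 changed sign, to -0.46 and -1.27 in the LBCS-labelled library and to -1.45 and -2.38 in si-PTBP1. The settings for IFIT2, IFIT3 and IFI6 in these 2 libraries were chosen after seeing the data. Without the filter the median was -0.05 in the LBCS-labelled library and -0.11 in si-PTBP1, beside -0.16 and -0.65. With a pseudocount of 0.1 the si-hnRNPK changes of IFI44L and IFI27 were 5.30 and 5.02, above the 4.57 of IFIT1, and under the 2 other references IFIT2 (4.01 and 4.59) was above IFI6 (3.92 and 3.65). In si-hnRNPK all 9 genes were past the line under each of 8 alternatives, with a median of 2.84 to 3.44, and the count of other interferon genes was 34 to 43, beside 37, and 27 when only genes at 1 CPM or more in control entered, a setting chosen after seeing the data. A binomial test of reads between 2 libraries, which compares those libraries and not the conditions, called 10870 of 13672 genes in si-hnRNPK against control, all 9 genes included, and so separates little at this depth. No paired analysis was possible because each condition has 1 library. IFI27 and IFI44L had 5 to 31 reads outside si-hnRNPK, which limits their ratios.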

Other observations

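IFIT2 and IFIT3 were the 2 of the 7 genes passing the filter that were past the 2-fold line downward in both the LBCS-labelled library and si-PTBP1. The genes nearest to their mean profile over the 3 changes against control were looked up after their values were seen, and are a description. CCL2, a monocyte chemokine, was nearest (distance 0.776), at 68.9 CPM in control, 320.4 in si-hnRNPK, 16.1 in the LBCS-labelled library and 28.3 in si-PTBP1. OASL, an OAS-like protein that enhances RNA sensing, followed (distance 0.977), at 9.89, 45.7, 2.05 and 1.21 CPM in the same order. CXCL8, a neutrophil chemokine, was next (distance 1.33), at 37.2, 147.6, 16.6 and 22.3 CPM. For each of these the si-hnRNPK level was the highest and control lay between it and the other knockdowns, which the choice by nearest profile makes close to built in. The profiles share the control library.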
